A study of Mus musculus with 12 samples.

Results

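Gene expression was compared between GL261 tumours of treated mice (9 arrays) and GL261 tumours of Control mice (3 arrays). The comparison used all 12 arrays of the series, and each of the 3 treatments carried an equal weight. It therefore tests the average over the treatments against Control tumours. A difference in this average need not be shared by every treatment. GL261, a glioma line of C57BL/6 origin, forms tumours in mice of that strain with a working immune system; per the labels it was implanted into the brains of 8-week-old males, whose tumours were taken on day 16. TMZ arrays (3) came from mice given temozolomide, an alkylating agent, at 30 mg/kg into the peritoneum. Anti-PD-1 arrays (3) came from mice given an antibody against the inhibitory T cell receptor PD-1 at 10 mg/kg into a vein, with 2 injections per week. Combination arrays (3) came from mice given both agents, and Control arrays (3) carry only that name: neither what the Control mice received nor the dosing days are in the labels. The genes compared were the 22180 genes named alone on a probe set, out of 41345 probe sets, with the brightest probe set standing for each gene. Total RNA of the tumour mass was measured on whole-transcript arrays, and values are log2 signals after RMA (background correction, quantile normalisation and summary of probes). Bulk RNA cannot tell fewer cells of a type from less RNA per cell. The labels do not say that each array came from its own animal, so p values measure the spread between arrays only.

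Temozolomide methylates DNA, and cells that try to copy the damaged template arrest or die after mismatch repair has acted on it. Blocking PD-1 releases T cells from inhibition, and interferon gamma made by active T cells is known to raise antigen presentation genes in tumour cells and macrophages. Dividing cells switch on DNA replication genes before S phase and mitosis genes before division, and mitosis genes often have promoters that carry CCAAT boxes and a cell cycle genes homology region.

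The Control arrays were not alike. On the first principal component of the 22180 genes (26.6% of the variance), treated arrays lay between -4.10 and 13.9, whereas Control 1 lay at -20.1, Control 2 at -26.4 and Control 3 at -1.28, inside the treated range. Counts are therefore given with Control 3 left out, and with Control 1 or Control 2 left out, beside the counts from all arrays. Control 3 was singled out by these same values, so larger differences and more calls without it were largely fixed in advance. A call made only without Control 3 is no separate support for a gene. Markers of neurons were bright on every array: the mean log2 level of the list's 17 measured members was 9.97 to 10.1 on treated arrays and 9.90 to 10.0 on Control arrays. How much brain each tumour sample held is not in the labels. Array medians were 5.06 to 5.12, a closeness that quantile normalisation largely fixes in advance.

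A gene is called here where its limma p, adjusted over all 22180 genes by the Benjamini-Hochberg method, is under 0.05. Of the 22180 genes, 197 (0.888%) were called, 145 lower in treated tumours (0.654%) and 52 higher (0.234%). At an unadjusted limma p under 0.05 there were 3441. On the log2 scale the falls had a median of -0.63 and ran from -0.26 to -2.60, and 22 of them were over 2-fold. The rises had a median of 0.42 and ran from 0.24 to 0.88, and 0 of them were over 2-fold. The 9 treated arrays did not overlap the 3 Control arrays for 180 of the called genes, (135 lower and 45 higher), and for 941 of all genes (4.24%), 414 of them lower (1.87%) and 527 higher (2.38%). Control 3 was the lowest of the Control arrays in 128 of the 145 genes that fell and the highest in 39 of the 52 that rose. Taking the distance between the treated mean and the mean of Control 1 and Control 2 as the whole, Control 3 lay a median of 50.3% of the way from the treated mean for genes that fell and 66.1% for genes that rose.

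Leaving out Control 3 raised the count to 838 called genes, 582 lower (2.62%) and 256 higher (1.15%), and 193 of the 197 were among them. Leaving out Control 2 left 5 called genes (Moxd1, Ccna2, Ect2, Atp13a5 and 3830403N18Rik), and leaving out Control 1 left 1, the RIKEN clone gene 3830403N18Rik. With 1 treated array left out the counts lay between 58 (without TMZ 2) and 240 (without TMZ 1). All 197 genes kept their direction in each of these 12 fits, and 47 of them were called in 10 or more. The neuron list moved with these counts: its mean level, centred per gene, was -0.079 and -0.094 on Control 1 and Control 2, against 0.015 on Control 3 and -0.030 to 0.064 on treated arrays. With that level as a covariate limma called 0 genes (1440 at an unadjusted p under 0.05); the 44 called genes named by the rule kept their direction, at a median of 69.6% of their size, with limma adjusted p between 0.18 and 0.738. That level was itself lowest on Control 1 and Control 2, so this fit cannot tell brain tissue from the difference between treated and Control arrays. The part of brain tissue in the falls was not tested.

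**Figure D1:**
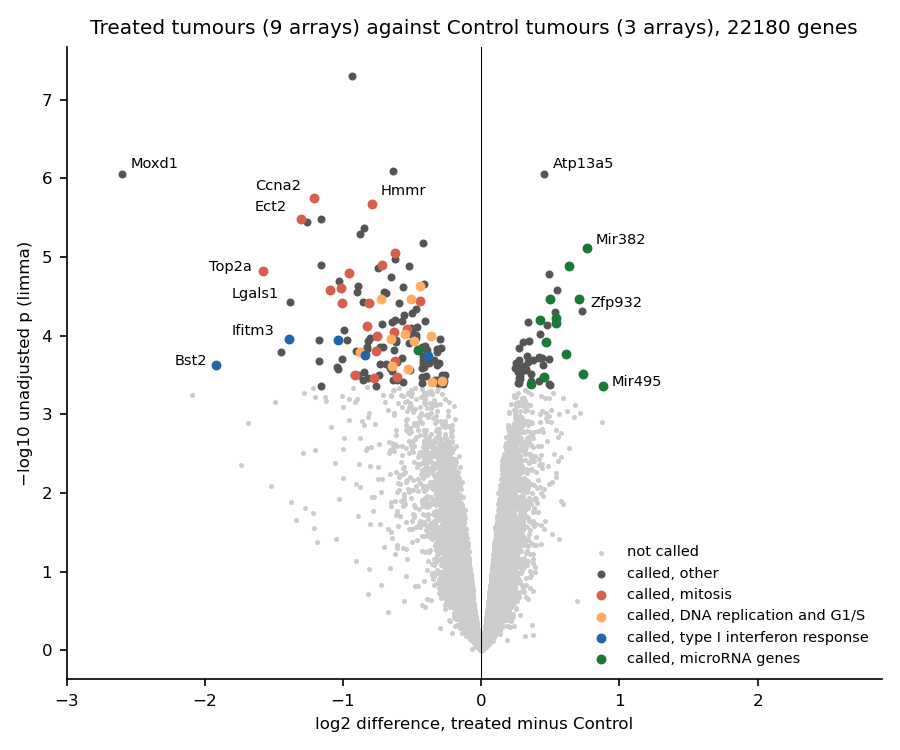
Each point is 1 of 22180 genes; the horizontal axis is the log2 difference of treated minus Control tumours and the vertical axis is minus log10 of the unadjusted limma p. Dark and coloured points are the 197 called genes, of which 145 lie left of 0; the mitosis genes are on the left and all but 1 of the called microRNA genes on the right.

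Mitosis genes gave more called falls than any other list. All 34 measured members of the mitosis list were lower in treated tumours, and 21 of them were called (61.8%, against 0.654% of all genes). For 23 members the groups did not overlap, while 1.87% of all genes were lower without overlap. The median log2 difference of the list was -0.63, against 0.0044 over all genes. It was -0.65 for TMZ, -0.66 for Anti-PD-1 and -0.67 for Combination, which share their Control arrays. The mean level of the list, centred per gene, lay between -0.27 and -0.06 on the treated arrays and at 0.62, 0.77 and 0.19 on Control 1, 2 and 3, so the groups did not overlap. The called members numbered 29 without Control 3, 2 (Ccna2 and Ect2) without Control 2 and 0 without Control 1.

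Ccna2 encodes cyclin A2, the partner of CDK2 and CDK1 in S phase and at entry into mitosis. Its log2 signal was 4.83, 5.12 and 5.25 (lowest, median and highest of 9) in treated tumours and 6.34, 6.61 and 5.76 in Control 1, 2 and 3. Every treated array lay below every Control array, with a log2 difference of -1.21 ± 0.14 (SE), a 2.31-fold lower signal (limma adjusted p = 0.00781). Ect2 encodes the exchange factor that activates RhoA at the cleavage furrow. It measured 4.41, 4.58 and 4.86 in treated tumours and 5.93, 6.33 and 5.34 in Control tumours, again without overlap (-1.31 ± 0.16, 2.47-fold lower, limma adjusted p = 0.00895). Top2a, the topoisomerase that untangles sister chromatids, had the largest fall of the list: 4.29, 4.69 and 5.29 in treated tumours and 6.56, 6.78 and 5.63 in Control tumours (-1.58 ± 0.22, 2.99-fold lower, limma adjusted p = 0.0157). Control 3 lay closest to the treated arrays for each of these genes.

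Hmmr, which encodes a microtubule-binding protein of the spindle and receptor for hyaluronan, measured 3.05, 3.14 and 3.27 in treated tumours and 4.14, 4.06 and 3.63 in Control tumours (-0.79 ± 0.09, limma adjusted p = 0.00781). Aurka, the Aurora A kinase of the spindle poles, fell by 0.62 ± 0.08 (limma adjusted p = 0.014). Mki67, the gene of the proliferation marker Ki-67, measured 5.19, 5.44 and 5.86 in treated tumours and 6.84, 6.77 and 6.04 in Control tumours (-1.09 ± 0.16, limma adjusted p = 0.0183). Prc1, which bundles microtubules of the central spindle, was 2.02-fold lower, and Ckap2, a spindle-associated protein, 2.04-fold lower. Prr11, a proline-rich protein gene, was 2.05-fold lower (limma adjusted p = 0.0393), with its highest treated array at 4.27 and its lowest Control array at 4.30. The other members that were called include Cdk1 (-1.01), Kif20a (-0.95), Nusap1 (-0.91), Bub1 (-0.82), Cdc20 (-0.81) and Plk1 (-0.75), which encode the mitotic kinase CDK1, a kinesin of cytokinesis, a spindle protein, a checkpoint kinase, an activator of the anaphase-promoting complex and Polo-like kinase 1. These 6 and Foxm1, the transcription factor of many mitosis genes (-0.64 ± 0.13, limma adjusted p = 0.0458), were named after their values were seen.

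Promoters were looked up for Ccna2, Hmmr and Ect2, the members of the mitosis list with the smallest p. Ccna2 had no entry among the promoters used, so the promoters of Hmmr and Ect2 are shown. They are RefSeq sequences of GRCm38.p6, from 250 bases before the listed start to 50 after it, on the gene's strand. The first of the 2 listed starts was used for Ect2. Capitals mark CCAAT or its reverse complement and the core TTTGAA of the cell cycle genes homology region, searched on both strands. Hmmr lies at chr11:40733388-40733687 (minus strand), with 5 CCAAT and 1 TTTGAA, and Ect2 at chr3:27153829-27154128 (minus strand), with 3 CCAAT and 2 TTTGAA.
Hmmr: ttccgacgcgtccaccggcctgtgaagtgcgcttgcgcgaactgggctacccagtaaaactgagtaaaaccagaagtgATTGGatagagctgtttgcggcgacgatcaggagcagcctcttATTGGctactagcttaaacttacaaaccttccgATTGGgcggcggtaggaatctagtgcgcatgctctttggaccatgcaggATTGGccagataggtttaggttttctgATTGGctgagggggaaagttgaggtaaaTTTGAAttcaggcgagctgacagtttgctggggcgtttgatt
Ect2: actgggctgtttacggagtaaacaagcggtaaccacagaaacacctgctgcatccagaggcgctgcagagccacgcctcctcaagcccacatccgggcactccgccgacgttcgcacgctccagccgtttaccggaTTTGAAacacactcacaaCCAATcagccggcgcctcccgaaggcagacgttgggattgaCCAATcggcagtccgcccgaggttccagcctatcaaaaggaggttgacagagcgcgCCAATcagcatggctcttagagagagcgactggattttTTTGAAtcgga
Of the mitosis list, 30 genes had a promoter in the table. TTTGAA was present in 24 of them (80.0%), against 18.1% of all 27025 promoters of that length, and CCAAT in 21 (70.0%), against 37.9%. A match describes these letters only. Hmmr and Ect2 are both described above among the genes that fell.

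The DNA replication and G1/S list gave the next largest number of called falls. All 29 measured members were lower, with a median log2 difference of -0.30, and 12 were called (41.4%). The list's mean level lay between -0.16 and -0.03 on treated arrays and at 0.34, 0.39 and 0.08 on Control 1, 2 and 3. Cdc6, which loads the MCM helicase at replication origins, measured 4.12, 4.23 and 4.42 in treated tumours and 4.69, 4.62 and 4.76 in Control tumours (-0.44 ± 0.06, limma adjusted p = 0.0183). Here Control 3 was the highest Control array. Mcm10, a factor of origin firing, fell by 0.51 ± 0.08 (limma adjusted p = 0.019), Dtl, the CDT2 adaptor of a ubiquitin ligase that acts in S phase, by 0.72 ± 0.11 (limma adjusted p = 0.019), and Uhrf1, which recruits maintenance DNA methylation, by 0.55 ± 0.10 (limma adjusted p = 0.0296). The helicase subunits Mcm3, Mcm4, Mcm5, Mcm6 and Mcm7 were called as well, with differences of -0.28 to -0.87; they were named after their values were seen. Members that were not called include Pcna (-0.27) and Tyms (-0.17). The called members numbered 19 without Control 3 and 0 without Control 1 or without Control 2, and the median lay between -0.41 and -0.24 with 1 Control array left out.

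The replication-dependent histone gene H2ac10 measured 7.39, 7.63 and 7.81 in treated tumours and 9.003, 9.12 and 8.21 in Control tumours (-1.16 ± 0.16, 2.23-fold lower, limma adjusted p = 0.0152). Histone genes of this kind have near-identical copies whose signals a probe set may not tell apart. Ccnd1, the cyclin D1 gene, through which growth factors drive cells out of G1, measured 7.30, 7.50 and 7.66 in treated tumours and 8.22, 8.51 and 7.95 in Control tumours. The groups did not overlap, and the difference was -0.74 ± 0.10 (limma adjusted p = 0.0153). Myc, the transcription factor of growth and biosynthesis genes, fell by 0.56 ± 0.09 (limma adjusted p = 0.0241). They were the 2 called members of the 13 measured in the growth factor output list, whose median was -0.12; 4 were called without Control 3 and 0 without Control 1 or without Control 2. In the immediate early list 13 of 14 members were lower (median -0.32) and 0 were called by limma, while 8 had an unadjusted p under 0.05. Its smallest p values were those of Junb (-0.39 ± 0.09, limma adjusted p = 0.0638) and Ier2 (-0.35 ± 0.09, limma adjusted p = 0.101), both encoding early response proteins. Without Control 3, 2 of its members were called lower (Ier2 and Atf3), and without Control 1 or without Control 2 there were 0. With 1 Control array left out its median lay between -0.38 and -0.18, and that of the growth factor output list between -0.19 and -0.06.

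The p53 targets and the genes that repair temozolomide lesions had medians close to that of all genes. In the p53 target list 9 of 17 members were lower, the median was -0.02 and 0 were called by limma (3 with an unadjusted p under 0.05). Cdkn1a, which encodes the cell cycle inhibitor p21, measured 7.48, 7.56 and 7.90 in treated tumours and 8.04, 8.27 and 7.70 in Control tumours (-0.38 ± 0.10, limma adjusted p = 0.0982), with overlap between the groups. Without Control 3 its difference was -0.54 and it was called. Sesn2, a stress-induced regulator of mTORC1, measured 5.55, 5.99 and 6.05 in treated tumours and 6.15, 6.34 and 6.10 in Control tumours (-0.27 ± 0.09, limma adjusted p = 0.18). In the list for repair of temozolomide lesions, 4 of 9 members were lower, the median was 0.01 and 0 were called by limma (2 with an unadjusted p under 0.05). Mgmt, the enzyme that removes methyl groups from the O6 position of guanine, measured 4.596, 4.90 and 4.99 in treated tumours and 4.92, 4.98 and 4.91 in Control tumours (-0.08 ± 0.08, limma adjusted p = 0.697). Pms2, a mismatch repair subunit, had a difference of 0.25 ± 0.07 (limma adjusted p = 0.146), with overlap between the groups. It was called higher without Control 3 (0.36), but not without Control 1 (0.15) or without Control 2 (0.22). The list of homologous recombination and checkpoint kinase genes had a median of -0.11 and 0 of 13 members called by limma (3 with an unadjusted p under 0.05); its smallest p values were those of the nuclease gene Exo1 (-0.41 ± 0.10, limma adjusted p = 0.0919) and the Fanconi gene Fancd2 (-0.26 ± 0.07, limma adjusted p = 0.107). Without Control 3, 1 p53 target and 3 genes of the recombination list were called lower; without Control 1 or without Control 2 there were 0. The recombination median lay between -0.17 and -0.04 with 1 Control array left out.

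**Figure D2:**
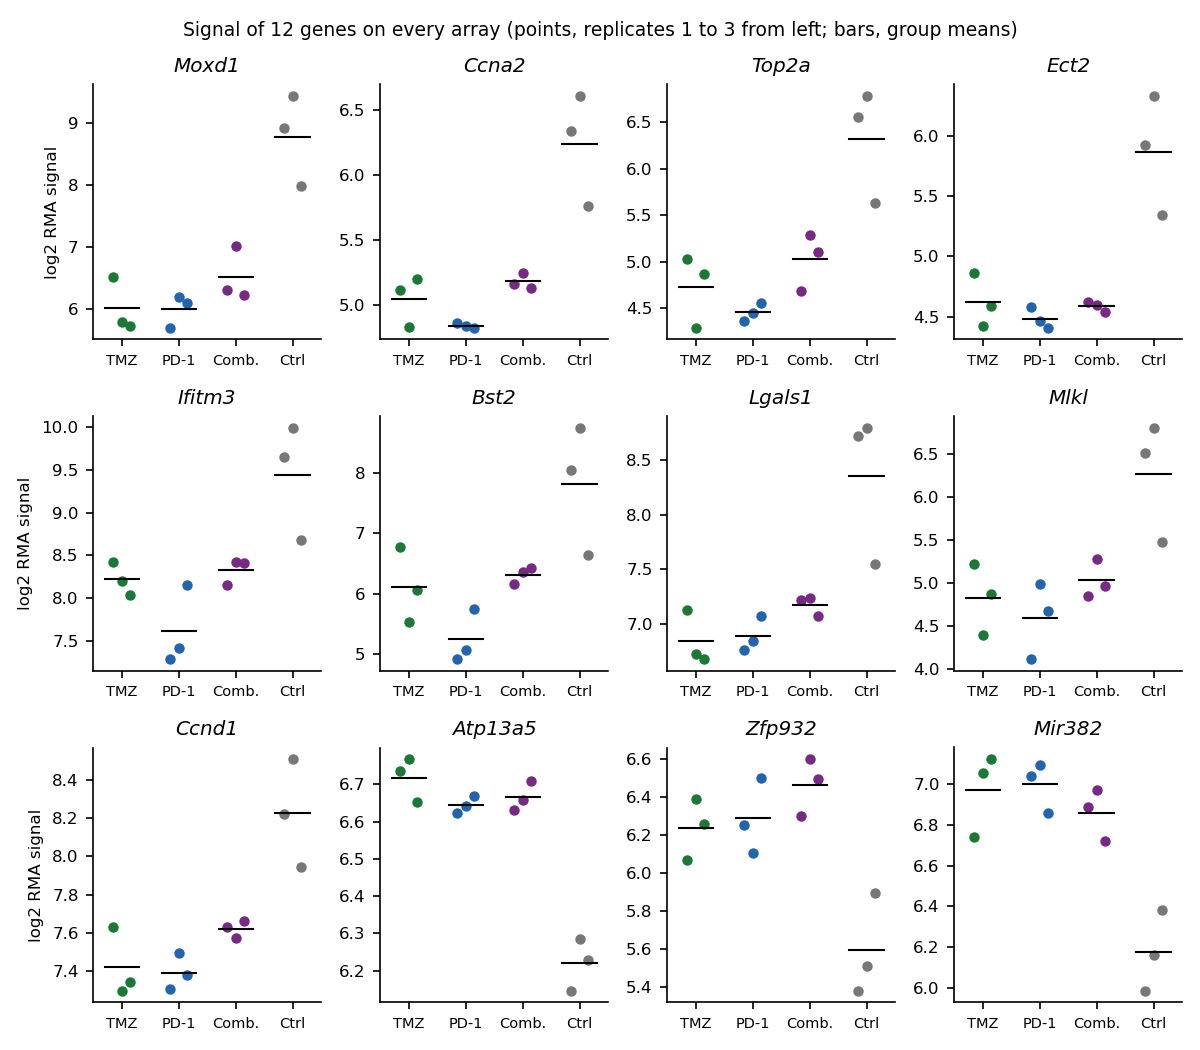
Log2 RMA signal (vertical axes, each with its own range that does not start at 0) of 12 genes on the TMZ, Anti-PD-1, Combination and Control arrays; points are arrays, replicates 1 to 3 from left, and bars are group means. Control 3, the rightmost grey point, is the Control array closest to the treated arrays in every panel except Atp13a5, where Control 2 is closest, and the groups overlap only for Bst2.

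Interferon-stimulated genes were the other large block of lower genes, with a wider spread between arrays. All 27 measured members of the type I interferon list were lower in treated tumours, with a median log2 difference of -0.67, and 26 had an unadjusted limma p under 0.05, but 5 were called (18.5%). Its medians were -0.68 for TMZ, -0.85 for Anti-PD-1 and -0.54 for Combination. The mean level of the list lay between -0.63 and 0.12 on treated arrays and at 0.74, 0.97 and 0.085 on Control 1, 2 and 3, so that Control 3 lay inside the treated range. Without Control 3, 22 members were called; without Control 1 or without Control 2, 0 were.

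Ifitm3 encodes a membrane protein that blocks the entry of enveloped viruses. Its log2 signal was 7.28, 8.16 and 8.42 in treated tumours and 9.66, 10.0 and 8.68 in Control tumours, without overlap (-1.39 ± 0.24, 2.62-fold lower, limma adjusted p = 0.0297). Parp12, an interferon-induced ADP-ribosyltransferase, measured 5.93, 6.57 and 6.89 in treated tumours and 7.71, 7.97 and 6.94 in Control tumours (-1.04 ± 0.18, limma adjusted p = 0.0297). Herc6, which in the mouse is the main ligase for the ubiquitin-like protein ISG15, fell by 0.84 ± 0.16 (limma adjusted p = 0.0349), and Mx1, listed in the mouse reference as a transcribed pseudogene of an antiviral GTPase, by 0.38 ± 0.07 (limma adjusted p = 0.0351). Bst2, the gene of tetherin, which holds budding virions at the cell surface, had the largest difference of the list. It measured 4.92, 6.07 and 6.77 in treated tumours and 8.05, 8.75 and 6.65 in Control tumours (-1.92 ± 0.37, 3.78-fold lower, limma adjusted p = 0.0379), and Control 3 lay below the highest treated array. Bst2 was named after its values were seen.

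Promoters were looked up for Ifitm3, Parp12 and Herc6, the members of the interferon lists with the smallest p. Only the promoter of Ifitm3, which held interferon response elements close to the start, is shown. It is the RefSeq sequence of GRCm38.p6 at chr7:141010695-141010994 (minus strand), from 250 bases before the start to 50 after it. Capitals mark 2 matches to the interferon-stimulated response element, searched as a pair of GAAA with any 2 bases between them, and 1 match to the gamma-activated site, searched as TTCNNNGAA, on both strands; the second element overlaps the gamma-activated site.
Ifitm3: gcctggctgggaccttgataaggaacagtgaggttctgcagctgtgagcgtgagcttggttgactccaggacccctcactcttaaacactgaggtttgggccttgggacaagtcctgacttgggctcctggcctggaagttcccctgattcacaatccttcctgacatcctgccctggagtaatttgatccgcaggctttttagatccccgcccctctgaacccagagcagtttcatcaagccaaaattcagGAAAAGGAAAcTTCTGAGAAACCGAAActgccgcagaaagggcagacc
The interferon-stimulated response element was present in 10 of the 18 promoters found for the type I list (55.6%) and in 8 of the 11 found for the interferon gamma list (72.7%), against 3.49% of all 27025 promoters. The promoters of Parp12 and Herc6 held neither element in this window, although both genes fell.

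In the interferon gamma list all 17 members were lower and the median was -0.83, yet 0 were called by limma, with 12 at an unadjusted p under 0.05. Its medians were -0.72 for TMZ, -1.235 for Anti-PD-1 and -0.37 for Combination. The list's mean level ran from -1.03 to 0.34 on treated arrays, and was 0.71, 1.14 and -0.12 on Control 1, 2 and 3. The largest fall in the list was -1.74, in a member that the naming rule did not pick. Irgm1, a GTPase that guards the cell against vacuolar pathogens, measured 4.92, 5.61 and 6.25 in treated tumours and 7.10, 7.32 and 5.95 in Control tumours (-1.20 ± 0.26, limma adjusted p = 0.0553). Gbp3, a guanylate-binding protein gene, had a difference of -1.13 ± 0.24 (limma adjusted p = 0.0553). For both genes Control 3 lay within the treated range. The MHC class I presentation list had a median of -0.48 with 0 of 15 members called by limma (13 at an unadjusted p under 0.05). Psmb8, a subunit of the immunoproteasome, differed by -0.999 ± 0.22 (limma adjusted p = 0.0614), and Tap1, a subunit of the peptide transporter, by -0.96 ± 0.22 (limma adjusted p = 0.0757). In the MHC class II list (median -0.35) 1 of 11 members was called: H2-DMb1, a subunit of the peptide exchange factor H2-DM, measured 3.34, 3.70 and 3.86 in treated tumours and 4.01, 3.93 and 3.98 in Control tumours (-0.32 ± 0.06, limma adjusted p = 0.0328). The class I medians were -0.38 for TMZ, -0.74 for Anti-PD-1 and -0.33 for Combination. Those of class II were -0.44, -0.48 and -0.07 in that order. Without Control 3, the called members were 10 of the interferon gamma list, 11 of the class I list and 3 of the class II list; without Control 1 or without Control 2 there were 0 in each. With 1 Control array left out the median of the interferon gamma list lay between -1.11 and -0.50, that of class I between -0.70 and -0.26 and that of class II between -0.53 and -0.24, each weakest without Control 2. With the neuron level as a covariate the interferon gamma median was -0.24.

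**Figure D3:**
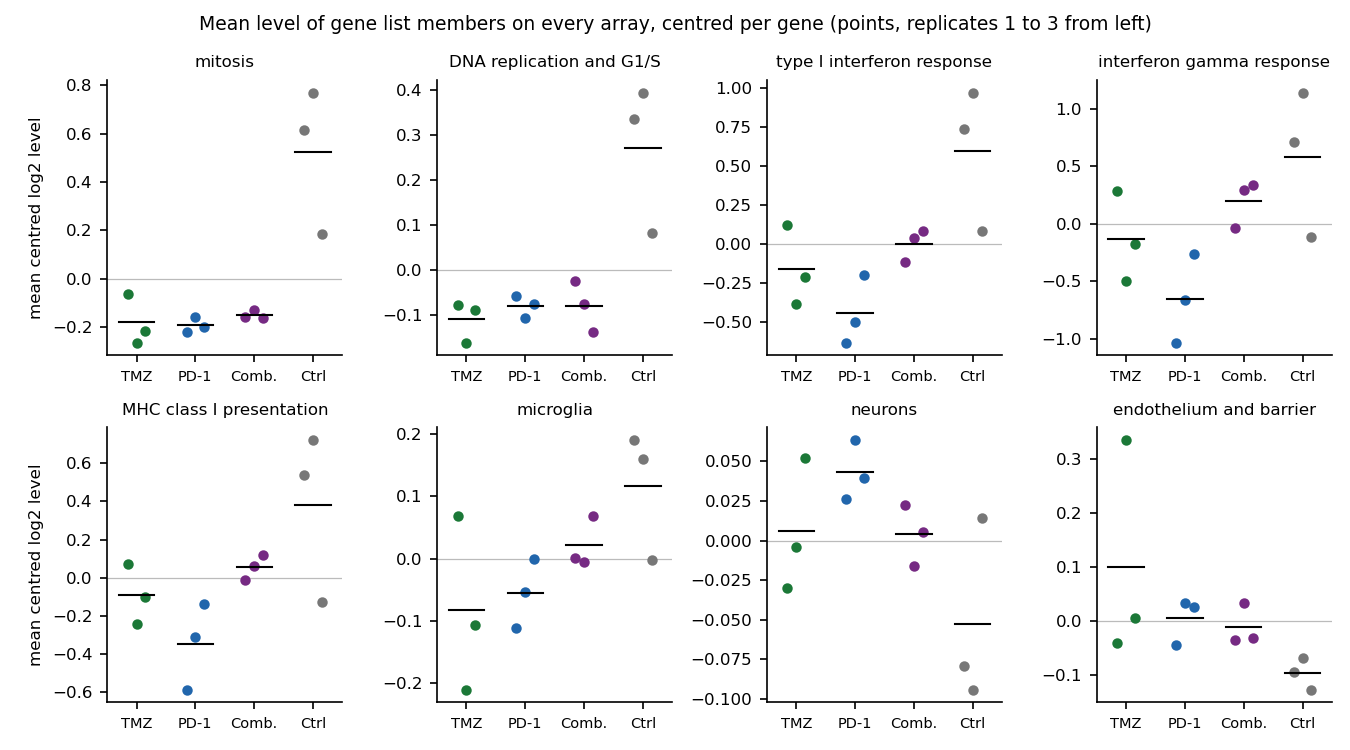
Mean log2 level of the members of 8 gene lists, centred per gene over the 12 arrays (vertical axes, each with its own range), on TMZ, Anti-PD-1, Combination and Control arrays; points are arrays, replicates 1 to 3 from left, and bars are group means. The treated arrays lie below all Control arrays for mitosis and DNA replication and above them for endothelium, whereas Control 3 lies within the treated range for the interferon, MHC, microglia and neuron lists.

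Genes of tumour myeloid cells were mostly lower, with few calls. The microglia list had 14 of 14 members lower by a median of -0.12, and 1 called: Olfml3, a secreted protein of microglia, measured 6.64, 6.80 and 6.91 in treated tumours and 7.31, 7.17 and 7.02 in Control tumours (-0.38 ± 0.07, limma adjusted p = 0.0368). P2ry12, the purinergic receptor of resting microglia, measured 7.32, 7.57 and 7.77 in treated tumours and 7.67, 7.65 and 7.53 in Control tumours (-0.05 ± 0.07, limma adjusted p = 0.806). Of the 16 monocyte and blood-derived macrophage genes 15 were lower (median -0.23), and Plac8, which marks inflammatory monocytes in the mouse, was called (-0.48 ± 0.08, limma adjusted p = 0.0296). In the list of lipid-associated macrophage genes 13 of 14 were lower (median -0.26), and Lgals3, the galectin-3 gene, was called (-0.61 ± 0.12, limma adjusted p = 0.0458). The largest fall in that list was -2.09, in a member that was not called. All 16 complement and scavenger genes were lower (median -0.47) and 0 were called by limma, with 11 at an unadjusted p under 0.05. Cfb, complement factor B, differed by -0.67 ± 0.15 (limma adjusted p = 0.0651), and Tyrobp, the adaptor of TREM2, by -0.48 ± 0.14 (limma adjusted p = 0.119). The chemokine and cytokine list had 18 of 20 members lower (median -0.26) and 1 called, Cxcl13, which attracts B cells and follicular helper T cells: it measured 5.49, 5.80 and 6.32 in treated tumours and 7.56, 7.32 and 6.32 in Control tumours (-1.18 ± 0.22, limma adjusted p = 0.0368). Its highest treated array (6.315) and its lowest Control array (6.319) all but met. The largest fall in the chemokine and cytokine list was -1.74, in a member that was not called. Without Control 3, 3 microglia, 4 monocyte, 5 lipid-associated, 9 complement and 6 chemokine genes were called lower; without Control 1 or without Control 2 there were 0. With 1 Control array left out the medians lay between -0.18 and -0.05 for microglia, between -0.38 and -0.03 for monocytes (weakest without Control 2), between -0.37 and -0.19 for lipid-associated, between -0.67 and -0.32 for complement and between -0.38 and -0.17 for chemokine genes.

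Genes of T cells, on which PD-1 acts, and of other lymphocytes gave no calls with all arrays. On treated arrays the mean log2 level was 4.78 to 5.03 for the T cell list and 4.34 to 4.62 for the cytotoxic list. It was 4.33 to 4.58 for the regulatory T cell list and 4.41 to 4.51 for the B cell list. The median level over all genes was 5.72, so a lack of calls at these low signals does not show unchanged lymphocytes. The T cell list had a median of -0.08, with 0 of 14 members called by limma and 4 at an unadjusted p under 0.05. Cd8a, the CD8 alpha chain of cytotoxic T cells, measured 3.99, 4.17 and 4.42 in treated tumours and 4.19, 4.30 and 4.16 in Control tumours (-0.03 ± 0.08, limma adjusted p = 0.903). Cd2, an adhesion receptor of T cells, differed by -0.30 ± 0.08 (limma adjusted p = 0.115) and Cd3e, a chain of the T cell receptor complex, by -0.37 ± 0.16 (limma adjusted p = 0.284). The cytotoxic list had a median of -0.14 with 0 of 16 called (2 at an unadjusted p under 0.05). Gzmb, the granzyme B gene, measured 3.58, 4.07 and 4.21 in treated tumours and 4.30, 4.69 and 3.78 in Control tumours (-0.29 ± 0.19, limma adjusted p = 0.489), and Ifng, the interferon gamma gene, 4.32, 4.53 and 4.64 in treated tumours and 4.54, 4.67 and 4.64 in Control tumours (-0.12 ± 0.07, limma adjusted p = 0.422). Klrk1, the activating receptor NKG2D (-0.38 ± 0.14), and Gzma, granzyme A (-0.40 ± 0.16), overlapped between groups and were called without Control 3, as was Cd8b1, the CD8 beta chain (-0.20 with all arrays and -0.34 without Control 3), the 1 such member of the T cell list. With 1 Control array left out the T cell median lay between -0.13 and -0.04 and the cytotoxic median between -0.16 and -0.09.

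Pdcd1, which encodes PD-1 itself, measured 3.86, 4.34 and 4.61 in treated tumours and 4.70, 4.23 and 4.59 in Control tumours (-0.22 ± 0.14, limma adjusted p = 0.498). Cd274, the gene of its ligand PD-L1, ranged widely in treated tumours (5.88, 6.71 and 7.38) around the Control values of 6.58, 7.05 and 6.23 (-0.12 ± 0.21, limma adjusted p = 0.825). This average joins Cd274 differences of -0.14 for TMZ, -0.58 for Anti-PD-1 and 0.36 for Combination, none of them called by limma. The 1 called member of the 15 in the checkpoint list (median -0.11) was Lgals9, the gene of galectin-9, a ligand of TIM-3. It measured 7.01, 7.25 and 7.61 in treated tumours and 8.40, 8.83 and 7.73 in Control tumours, without overlap (-0.97 ± 0.17, 1.96-fold lower, limma adjusted p = 0.0297), and remained called without Control 3 but not without Control 1 or without Control 2. Foxp3, the transcription factor of regulatory T cells, differed by 0.003 ± 0.139 (limma adjusted p = 0.994); its list had a median of -0.01, with Il2ra, the IL-2 receptor alpha chain (-0.26 ± 0.07), and Ctla4, an inhibitory receptor (0.27 ± 0.12), at opposite ends, neither called. B cell and plasma cell genes (median -0.04), neutrophil genes (0.0027) and dendritic cell genes (-0.11) had 0 members called by limma, with 1, 0 and 2 at an unadjusted p under 0.05. Their smallest p values were those of Sdc1, the plasma cell syndecan (-0.27 ± 0.09), the plasma cell receptor gene Tnfrsf17 (-0.14 ± 0.08), Retnlg (0.25 ± 0.14) and S100a8 (0.09 ± 0.07) of neutrophils, Irf8, a transcription factor of dendritic cells (-0.51 ± 0.13), and the lectin gene Cd209a (-0.28 ± 0.08). Without Control 3, Cd209a was the 1 member of these lists that was called. The checkpoint median lay between -0.18 and -0.08 with 1 Control array left out.

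Moxd1 had the largest fall of all called genes. Its product is a copper-dependent monooxygenase of the dopamine beta-hydroxylase family. Its log2 signal was 5.70, 6.19 and 7.02 in treated tumours and 8.91, 9.43 and 7.99 in Control tumours, without overlap, a 6.06-fold lower signal (-2.60 ± 0.28, limma adjusted p = 0.00493). The differences from Control were -2.77 for TMZ, -2.78 for Anti-PD-1 and -2.25 for Combination, and it was called in 11 of the 12 fits with 1 array left out, the exception being the fit without Control 1.

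Among cytoskeleton and matrix genes, Lgals1, Vim, Ccn1, Nes and Col3a1 fell. Lgals1, galectin-1, a lectin that binds matrix and T cell glycoproteins, measured 6.68, 7.07 and 7.23 in treated tumours and 8.72, 8.80 and 7.55 in Control tumours (-1.39 ± 0.22, 2.61-fold lower, limma adjusted p = 0.019). Vim, the intermediate filament vimentin, measured 8.22, 8.65 and 9.04 in treated tumours and 9.79, 10.1 and 9.16 in Control tumours (-1.01 ± 0.19, limma adjusted p = 0.0359). Both were called members of the CCN and matrix list, in which 20 of 23 genes were lower (median -0.25). The third was Ccn1, a matricellular protein gene that responds to YAP, which fell by 0.65 ± 0.09 (limma adjusted p = 0.0165). In the glioma and neural progenitor list, 13 of 17 members were lower (median -0.17), and Vim and Nes, nestin (-0.42 ± 0.08, limma adjusted p = 0.0368), were called; the groups overlapped for Nes. Col3a1, a fibrillar collagen gene, measured 4.96, 5.32 and 5.55 in treated tumours and 6.03, 5.94 and 5.69 in Control tumours (-0.63 ± 0.11, limma adjusted p = 0.0323). It was the 1 called member of the 20 collagen and fibroblast genes, of which 13 were higher and whose median was 0.03. Without Control 3, 9 matrix, 2 glioma and 1 collagen genes were called lower and 1 glioma list gene, Dcx, the doublecortin gene of migrating neuroblasts, higher (0.37); without Control 1 or without Control 2 there were 0. The glioma list median lay between -0.26 and -0.10 with 1 Control array left out. The hypoxia and glycolysis list had a median of -0.04 and 0 of 15 members called by limma (2 at an unadjusted p under 0.05), with differences of -0.26 ± 0.08 for the hexokinase gene Hk2 and 0.18 ± 0.07 for Vegfa, which drives vessel growth.

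Further falls lay outside the lists. Mlkl, the pseudokinase that opens the membrane in necroptosis, measured 4.11, 4.87 and 5.27 in treated tumours and 6.51, 6.81 and 5.48 in Control tumours (-1.45 ± 0.27, 2.73-fold lower, limma adjusted p = 0.0328). Nxf3, of the family of nuclear RNA export factors, measured 2.80, 3.05 and 3.29 in treated tumours and 4.28, 4.88 and 3.55 in Control tumours (-1.17 ± 0.21, limma adjusted p = 0.0297). The smallest p of all genes belonged to 3830403N18Rik, an X-linked RIKEN clone gene named after its values were seen. Its 9 treated arrays lay between 2.66 and 3.19 and its Control arrays at 3.96, 3.76 and 3.65 (-0.94 ± 0.08, limma adjusted p = 0.00111), and it was called in all 12 fits with 1 array left out. These signals and those of Nxf3 are low, below the median level of 5.72 over all genes, and no filter on brightness was applied. Also named after their values were seen are Neb, the muscle protein nebulin (-0.64 ± 0.07, limma adjusted p = 0.00493), Car6, a secreted carbonic anhydrase (-0.87 ± 0.11, limma adjusted p = 0.0102), and Piezo2, a mechanically gated channel (-0.90 ± 0.13, limma adjusted p = 0.0183). Erbb3, the neuregulin receptor (-0.89 ± 0.18, limma adjusted p = 0.0434), Adgrg6, an adhesion receptor needed for peripheral myelin (-0.86 ± 0.13, limma adjusted p = 0.019), and Prph, peripherin, an intermediate filament of peripheral neurons (-0.99 ± 0.17, limma adjusted p = 0.0289), fell too and were named in the same way.

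**Figure D4:**
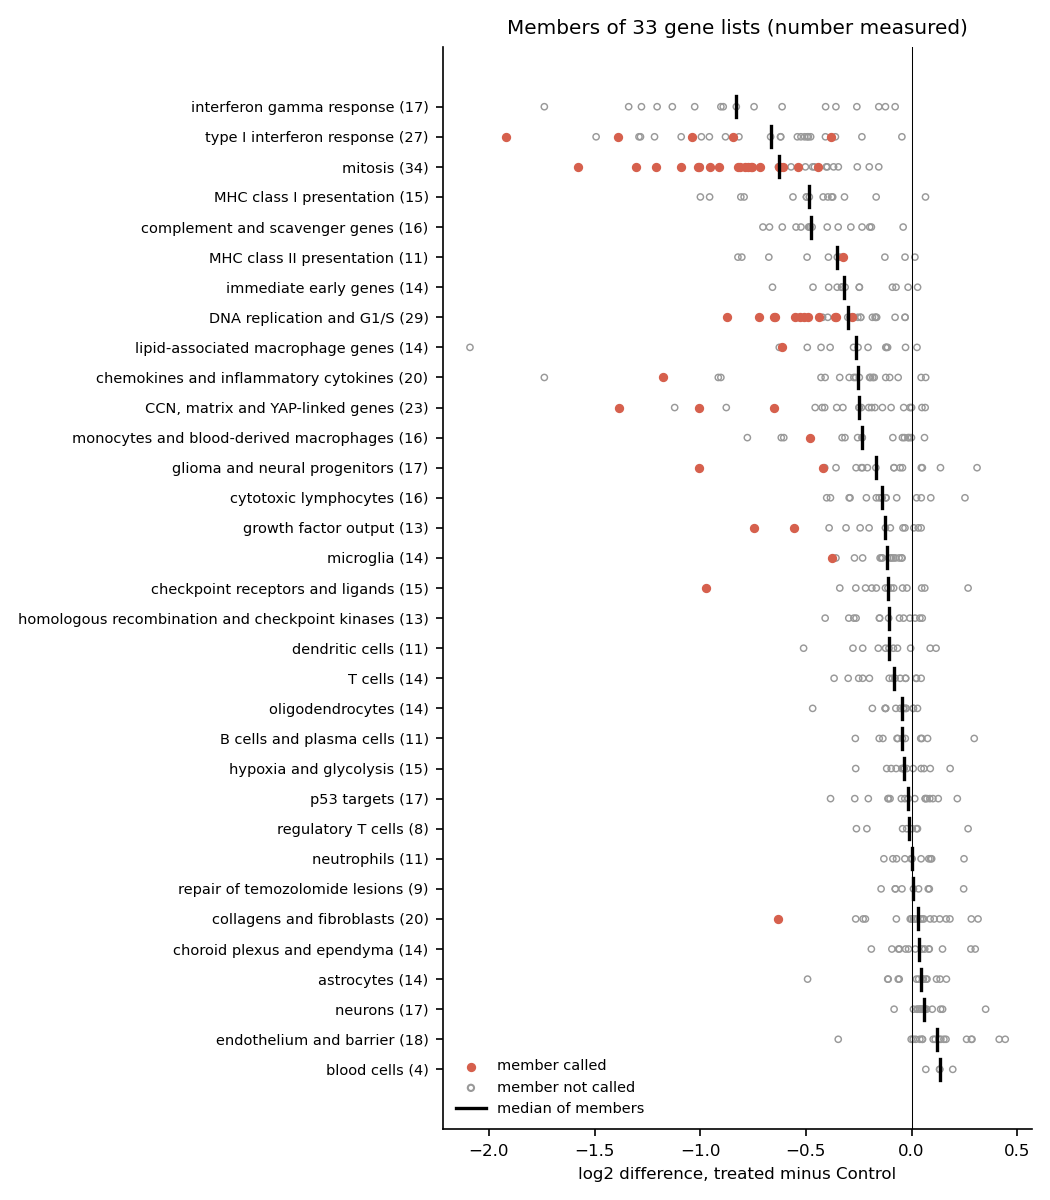
Log2 difference of treated minus Control tumours (horizontal axis) for the measured members of 33 gene lists (rows, number measured in parentheses). Filled points are called members, open points are members that were not called and bars are list medians; all called members lie left of 0, most of them in the mitosis and DNA replication rows.

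Lists of normal brain, vessel and blood cell markers had medians between -0.05 and 0.13, or between -0.08 and 0.20 with 1 Control array left out, and no members called with all arrays. In the neuron list 16 of 17 members were higher, with a median of 0.06, and 0 were called by limma (3 at an unadjusted p under 0.05). Its mean level was lowest on Control 1 and Control 2, the arrays on which the mitosis and interferon lists were highest. Snhg11, a noncoding RNA of neurons, differed by 0.35 ± 0.09 (limma adjusted p = 0.0867). It was called higher without Control 3 (0.45), but not without Control 1 (0.33) or without Control 2 (0.27). Grin2b, an NMDA receptor subunit, differed by 0.15 ± 0.07.

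Of the endothelium and barrier genes 16 of 18 were higher (median 0.12) and 0 were called by limma (4 at an unadjusted p under 0.05). The list's mean level was between -0.04 and 0.34 on treated arrays and at -0.093, -0.068 and -0.127 on Control 1, 2 and 3, without overlap; the highest value was that of TMZ 2. Slco1a4, an organic anion transporter of the blood-brain barrier, measured 7.48, 7.74 and 8.24 in treated tumours and 7.41, 7.19 and 7.39 in Control tumours (0.44 ± 0.13, limma adjusted p = 0.122), and Tek, the angiopoietin receptor, differed by 0.41 ± 0.11 (limma adjusted p = 0.115). Astrocyte (median 0.04), oligodendrocyte (-0.05), choroid plexus and ependyma (0.03) and blood cell genes (0.13, 4 measured) had 0 members called by limma, with 4, 1, 4 and 0 at an unadjusted p under 0.05. Gfap, the filament of reactive astrocytes, measured 8.86, 9.06 and 9.39 in treated tumours and 9.83, 9.56 and 9.44 in Control tumours (-0.49 ± 0.13, limma adjusted p = 0.0962), while Gjb6, connexin 30 of astrocytes, differed by 0.16 ± 0.05 (limma adjusted p = 0.144). Sox10, the transcription factor of oligodendrocyte lineage and Schwann cells, differed by -0.47 ± 0.11 (limma adjusted p = 0.08). It was called without Control 3 (-0.65), but not without Control 1 (-0.47) or without Control 2 (-0.28). Myrf, which drives myelin genes, differed by -0.19 ± 0.09. The remaining smallest p values were those of Tmem212 (0.28 ± 0.07) and Enkur (0.15 ± 0.06), of ciliated cells, the red cell gene Epb42 (0.13 ± 0.09) and the platelet chemokine gene Ppbp (0.19 ± 0.20).

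With all arrays, no list had a member called higher. The rise with the smallest p was that of Atp13a5, a P5-type transport ATPase. It measured 6.62, 6.66 and 6.77 in treated tumours and 6.15, 6.29 and 6.23 in Control tumours (0.46 ± 0.05, 1.37-fold higher, limma adjusted p = 0.00493). The 9 treated arrays spanned 0.14 and lay well above the Control arrays, and the difference without Control 3 was again 0.46. It was called in 11 of the 12 fits with 1 array left out, all but the fit without Control 1. Zfp932, a zinc finger gene with close relatives that its probes may not tell apart, measured 6.07, 6.30 and 6.60 in treated tumours and 5.38, 5.51 and 5.90 in Control tumours (0.73 ± 0.12, 1.66-fold higher, limma adjusted p = 0.023).

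The other rises that could be named were smaller. Inca1, an inhibitor of CDK2 with cyclin A, measured 3.91, 4.05 and 4.55 in treated tumours and 3.71, 3.71 and 3.85 in Control tumours (0.38 ± 0.07, limma adjusted p = 0.0362); its mean rise was 0.61 for TMZ, 0.26 for Anti-PD-1 and 0.25 for Combination. Tfr2, the second transferrin receptor, rose by 0.36 ± 0.07 (limma adjusted p = 0.0458), and Kcnq1ot1, the imprinted noncoding RNA antisense to Kcnq1, by 0.35 ± 0.06 (limma adjusted p = 0.0297). Wsb1, a substrate adaptor of a ubiquitin ligase, rose by 0.32 ± 0.06 (limma adjusted p = 0.0393), and Cep70, a centrosome protein, by 0.30 ± 0.06 (limma adjusted p = 0.0386). Minar2, a membrane protein that binds NOTCH2, rose by 0.29 ± 0.06 (limma adjusted p = 0.0404) and Fam227a by 0.29 ± 0.06 (limma adjusted p = 0.039). Krtap5-5, of the keratin-associated family with near-identical copies, rose by 0.42 ± 0.08 (limma adjusted p = 0.0458). As the rule for naming them requires, their treated and Control arrays did not overlap. All but Zfp932 and Atp13a5 were called in at most 4 of the 12 fits with 1 array left out.

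Among the 52 rises, 30 were of classes that the rule counts without a name, such as predicted genes, RIKEN clones and microRNA genes. Of these 30, 13 were microRNA genes. Of the 478 microRNA genes measured, 13 were called higher (2.72%, against 0.234% of all genes) and 1 lower. This pattern and the genes in it were found after the values were seen, and are given as a description. Of the 13, 8 lie in 1 cluster of 43 measured microRNA genes on chromosome 12, at chr12:109571990-109743236 in RefSeq GRCm38.p6 (171.2 kb), in the imprinted Dlk1-Dio3 domain, where the microRNAs are made from the maternal chromosome. In this cluster 39 of 43 genes were higher, 13 of them without overlap (2.38% of all genes were higher without overlap). The median log2 difference of the cluster was 0.34, against 0.04 for the other 435 microRNA genes. The medians were 0.29 for TMZ, 0.38 for Anti-PD-1 and 0.30 for Combination.

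Mir382 measured 6.72, 6.97 and 7.12 in treated tumours and 5.99, 6.16 and 6.38 in Control tumours (0.77 ± 0.10, 1.70-fold higher, limma adjusted p = 0.0133). Mir376b measured 5.47, 5.80 and 6.01 in treated tumours and 5.01, 5.07 and 5.25 in Control tumours (0.71 ± 0.11, limma adjusted p = 0.019). Mir495 measured 4.21, 4.56 and 4.90 in treated tumours and 3.30, 3.62 and 4.20 in Control tumours (0.88 ± 0.18, limma adjusted p = 0.0498), the largest of all rises, with Control 3 (4.205) just below the lowest treated array (4.209). Mir154 rose by 0.73 ± 0.15 (limma adjusted p = 0.0434). The other 4, Mir329, Mir341, Mir544 and Mir654, rose by 0.54, 0.45, 0.36 and 0.43. The host transcripts of the domain that were measured were not called. Rian differed by 0.32 ± 0.08 (limma adjusted p = 0.078), without overlap, and Meg3 by 0.30 ± 0.09 (limma adjusted p = 0.158). The protein-coding Dlk1 (0.08) and Dio3 (-0.13) overlapped between groups. Mirg and Rtl1 of the same domain were not among the genes compared. Without Control 3, 13 genes of the cluster were called higher; without Control 1 or without Control 2, 0 were. Chromosome 12 held 10 called rises among its 748 genes (1.34%, against 0.234% of all genes), the 8 of the cluster included. It held 0 called falls, against 0.654% of all genes.

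The mature arms of the 4 with the largest rises are shown to give their seeds, since none is shared among the 16 arms of the 8 genes. The probe sets lie on the hairpin gene and do not tell its arms apart. Nor do they tell a mature microRNA from longer precursor or host RNA, which genes of the cluster may share. Levels of mature microRNA were therefore not measured, and the rises in the cluster need not be separate results. Sequences are those of RefSeq GRCm38.p6, and capitals mark the seed, bases 2 to 8.
mmu-miR-382-5p: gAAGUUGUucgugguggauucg
mmu-miR-382-3p: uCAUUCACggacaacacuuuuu
mmu-miR-495-5p: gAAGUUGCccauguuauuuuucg
mmu-miR-495-3p: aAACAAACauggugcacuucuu
mmu-miR-376b-5p: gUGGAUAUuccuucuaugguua
mmu-miR-376b-3p: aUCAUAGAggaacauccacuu
mmu-miR-154-5p: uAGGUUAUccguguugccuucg
mmu-miR-154-3p: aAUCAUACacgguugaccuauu
The other 5 called microRNA genes lie elsewhere: Mir99a (0.63 ± 0.09, limma adjusted p = 0.0152), Mir23b (0.50 ± 0.08, limma adjusted p = 0.019), Mir219a-2 (0.54), Mir186 (0.62, with overlap) and Mir325 (0.47). Mir3091 was the 1 that fell (-0.46).

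**Figure D5:**
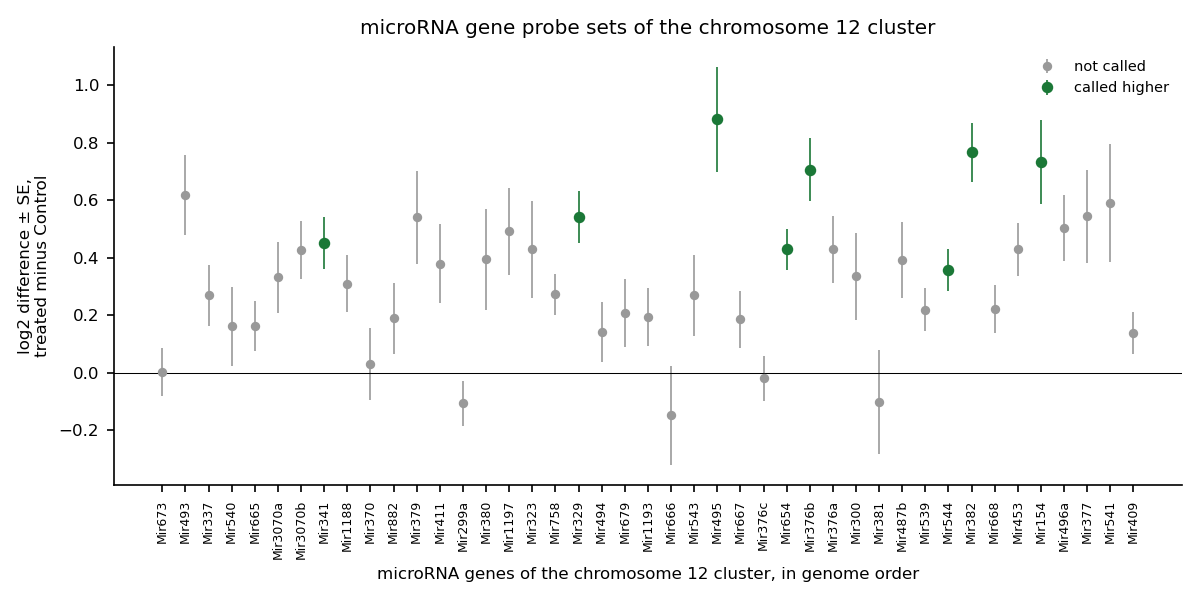
Log2 difference of treated minus Control tumours ± SE (vertical axis) for the 43 microRNA genes of the chromosome 12 cluster, in genome order (horizontal axis, evenly spaced, not to scale). Filled green points are the 8 genes called higher; 39 of the 43 lie above 0.

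The treatments were also compared with each other within the same fit. The moderated F test of limma among TMZ, Anti-PD-1 and Combination called 0 of 22180 genes, with a smallest adjusted p of 0.677 and 986 genes at an unadjusted p under 0.05. Of the 197 genes called against Control, 19 had an unadjusted p under 0.05 in that test. The means of TMZ, of Anti-PD-1 and of Combination each lay below the Control mean for all 145 falls, which the average partly fixes, with medians of -0.63, -0.65 and -0.60. Combination was the treatment nearest to Control for 82 of the 145, and Anti-PD-1 the farthest for 83, TMZ for 36 and Combination for 26. Set against the same Control arrays singly, limma called 22 genes for TMZ (0.0992%), 65 for Anti-PD-1 (0.293%) and 0 for Combination. The genes with the smallest p in the F test were Prss55, a serine protease gene (-0.12 for TMZ, 0.15 for Anti-PD-1 and -0.29 for Combination against Control), the gasdermin gene Gsdmc2 (0.44, -0.05 and -0.20 in that order), Wfikkn2, a myostatin-binding protein (-0.15, 0.45 and 0.24), Fam71a (0.15, -0.02 and -0.40), Pou2f3, the transcription factor of tuft cells (0.10, 0.40 and 0.07), and Msc, the repressor musculin (0.05, 0.01 and -0.38). None passed the adjustment, so no difference between treatments was shown.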

How the data were processed

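The deposited values are log2 signals of 41345 probe sets on 12 arrays, which the authors made from biotin-labelled sense cDNA (whole-transcript labelling, per the labels' protocols) with RMA in the Affymetrix Expression Console, per the submitters' processing notes; its version is not given in the sources used here. Quantile normalisation, a part of RMA, gives all arrays 1 distribution and hides shifts shared by most genes. The annotation named 1 symbol for 23521 probe sets, several for 1814 and did not list 16010; of the first, 23328 matched RefSeq genes and 0 symbols changed. For the 1082 genes on more than 1 probe set the one with the highest mean was used, with no filter on brightness.

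The model held 1 mean per group (limma 3.58.1, R 4.3.3: lmFit, contrast, eBayes with default settings, 8 residual degrees of freedom, two-sided p, Benjamini-Hochberg over 22180 genes), and ± after a log2 difference is limma's SE. The script was tested on simulated data. Arrays give no read depth; their number limits the precision.

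Members and lists (33, with 571 entries, 521 measured) were chosen with earlier results of these data known, and no list was tested. The rule for named genes took the 15 largest falls and 10 largest rises among called genes whose arrays did not overlap, up to 4 called members of each list (2 with the smallest p where none was called), 6 genes of the F test and 11 fixed genes, leaving out predicted genes, RIKEN clones, receptors of smell and taste, immune receptor segments, small RNAs and ribosomal genes; exceptions are stated. Alternatives were a replicate block, other variance models, array weights, averaged probe sets, a brightness filter, all probe sets, centring, a neuron covariate, treated arrays as 1 group and leaving out each array.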

Additional observations from a re-analysis of the deposited data

Results flagged for a closer look

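Among the 98 named genes, 5 had 1 treated array set apart from the other 8 treated arrays by Dixon's criterion at the 95% level, and chance gives about 1 in 20. Ect2 stood at 4.859 on TMZ 1, next to 4.619. Sesn2 stood at 5.554 on Anti-PD-1 1, next to 5.838. Junb stood at 7.076 on TMZ 2, next to 6.86. Nes stood at 5.775 on TMZ 1, next to 5.527, above the lowest Control array. Ppbp stood at 5.387 on TMZ 2, next to 4.473.

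Probe sets with several symbols or none entered no comparison of named genes. In a fit over all 41345 probe sets, 15 of them were called: 5 of the 1814 with several symbols, which were lower in treated tumours, and 10 of the 16010 not listed, 4 lower and 6 higher.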

How the results depend on the processing

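The counts called by limma were 197 in all, 145 lower and 52 higher in treated tumours. They were 677, 384 and 293 with a variance trend on the mean level, 371, 263 and 108 with array weights (Control 3 had the lowest weight, 0.678), 40, 30 and 10 over all probe sets, where more features are adjusted for, and 0, 0 and 0 with the neuron level as a covariate. Among genes at or above the median level they were 413 in all and 228 higher, with 185 lower; with the treated arrays as 1 group, 87 were higher (281 in all). The split between lower and higher calls thus moved towards rises under the trend and the brightness filter. The robust prior, averaged probe sets and centring on the median kept the counts within 1.5 times (190 to 193 in all); centring put the median difference of all genes at 0.0017. With 1 array left out the counts ran from 1 to 838 in all, from 1 to 582 lower and from 0 to 256 higher, the lowest without Control 1 and the highest without Control 3. The F test among the treatments called 0 genes under each of these settings that it could be run in, and from 0 to 0 with 1 array left out.

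With the replicate number as a block the counts were 161, 121 and 40, and 33 of the 44 called genes named by the rule were still called. The numbers share no stated animal or batch, and same-numbered arrays did not deviate together (correlations of -0.162 to 0.156, median -0.0122, against -0.268 to 0.201 for other pairs), so the pairing is not taken as real. None of the 44 genes changed direction in an alternative in which it was tested; 22 of them were tested among genes at or above the median level. Over all alternatives and arrays left out, list medians ran from -0.81 to -0.48 for mitosis, from -0.41 to -0.17 for DNA replication, from -0.92 to -0.38 for type I interferon and from -1.11 to -0.24 for interferon gamma; with the neuron covariate they were -0.48, -0.21, -0.38 and -0.24. The cause of these shifts in the counts was not tested.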
